A study of Mus musculus with 37 samples.

Results

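The complement genes described here are C1qa, C1qb, C1qc, C1ra, C4b, C2, C3, Cfb and C3ar1, 9 of the 24421 gene symbols in the count table. They were taken by their symbols, with earlier results of these data known, and all 9 had enough counts to be tested in every comparison. Complement is a set of blood and tissue proteins that are cut in a cascade and leave fragments on microbes, dying cells and immune complexes. C1q binds such targets, the proteases C1r and C1s then cut C4 and C2, and the resulting enzyme cuts C3. Factor B forms the matching enzyme of the alternative pathway, and the small fragment C3a acts on cells through its receptor. Most plasma complement comes from the liver, while macrophages are the main source of C1q, and epithelial cells, fibroblasts and adipocytes also make C3 and other components.

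RNA from the urinary organs of female wild-type BALB/c mice was sequenced across the whole transcriptome, giving 37 libraries. N-butyl-N-(4-hydroxybutyl) nitrosamine (BBN), a carcinogen of the urothelium, was given in drinking water for 18 weeks to mice that were young adults at the start, and controls drank tap water. UT denotes upper urinary tract with cancer from mice given BBN (11 libraries from 10 mice, both sides of mouse 5), and UN the side without cancer (7 libraries from 7 mice). U was the ureter of tap-water mice (6 libraries, both ureters of 3 mice), and the bladders came from the same animals, 10 with BBN (BBN bladder) and 3 without (untreated bladder). The organs were bulk tissue, the noncancerous side came from animals with cancer on the other side, and the tap-water groups rest on only 3 mice. In bulk tissue, fewer cells of a type and less RNA per cell cannot be told apart. BBN bladder 6 carries the letter for tumor in its library name, while its title gives only the bladder.

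The deposited values are estimated counts per gene, given here as CPM, for which the total of each library was scaled to the same value. Totals ranged from 9724542 to 16735797 in UT, 4675081 to 14973904 in UN, 12980008 to 18793560 in U, 3557697 to 15104379 in BBN bladder and 14348701 to 16617435 in untreated bladder. The lowest count of any of the 9 genes in a library was 35, for C2. The RNA integrity number (RIN) in the quality table of the study lay under 5 in 5 libraries, which were UN 6, U 1R and BBN bladders 1, 3 and 4. Marker genes for the expected tissue were present in every group, but unevenly. The summed level of 8 urothelial genes was 15837 to 16467 CPM in untreated bladder and 1080.4 to 2167 CPM in U, and it was 14.9 CPM in UN 2. The summed level of 7 adipocyte genes was 19569 to 28823 CPM in U, 4278 to 25685 CPM in UN, 35.7 to 15805 CPM in UT and 58.1 to 2689.8 CPM in BBN bladder. UT 4 held 2292 CPM of kidney tubule genes, and BBN bladder 3 held 1829.7 CPM of liver genes.

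The 3 C1q genes lie next to each other on mouse chromosome 4 (GRCm38, GENCODE vM21), with C1qb at chr4:136880129-136886187, C1qc at chr4:136889804-136893065 and C1qa at chr4:136895917-136898803, all on the minus strand. C4b at chr17:34728380-34743882, Cfb at chr17:34856374-34862518 and C2 at chr17:34862604-34898265 share a region of chromosome 17, and C3 lies further along at chr17:57203970-57228136. C3ar1 at chr6:122847138-122856161 and C1ra at chr6:124512405-124523443 are on chromosome 6. The counts of C4b and C1ra could share reads with the near-identical C4a and C1rb, and fractional counts stood in 17 of 37 libraries for C4b and in 21 for C1ra, so their values are uncertain to that extent. Cfb had fractional counts in 16 libraries and is uncertain likewise. The ratio of C4a to C4b was 0.0916 to 0.178 over all libraries. A read-through transcript, Gm20547, spans Cfb and C2 on the same strand, and Zbtb12 overlaps C2 on the other strand.

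The sequence just before the start of a gene is shown for 3 members that stand for the patterns below: C3, which had its highest group mean in U, C1qb, which was higher on both sides of BBN-treated mice, and C3ar1, which was called, like C1qb, in UN and in UT against U. Each run is the 200 bases before the annotated start, 5′ to 3′ in the direction of transcription (GRCm38.p6), from chr17:57228137-57228336, chr4:136886201-136886400 and chr6:122856162-122856361, all on the minus strand. The start is that of RefSeq for C3 and C1qb, and for C3ar1 that of GENCODE, 4 bases upstream of the RefSeq start. Capitals mark matches on either strand to 4 letter patterns, namely that of NF-kB (GGGA, 4 bases of any kind, then CC), TTGCNNAA of C/EBP, the core GAGGAA of ETS factors and TTCNNNGAA of STAT dimers.

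C3: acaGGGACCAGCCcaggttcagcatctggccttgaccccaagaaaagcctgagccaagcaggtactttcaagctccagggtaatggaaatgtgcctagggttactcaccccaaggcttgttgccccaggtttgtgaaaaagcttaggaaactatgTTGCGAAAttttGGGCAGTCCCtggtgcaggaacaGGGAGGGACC
C1qb: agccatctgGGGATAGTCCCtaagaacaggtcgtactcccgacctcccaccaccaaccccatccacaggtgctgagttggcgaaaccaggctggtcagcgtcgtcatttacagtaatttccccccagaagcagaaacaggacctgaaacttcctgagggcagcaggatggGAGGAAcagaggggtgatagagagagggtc
C3ar1: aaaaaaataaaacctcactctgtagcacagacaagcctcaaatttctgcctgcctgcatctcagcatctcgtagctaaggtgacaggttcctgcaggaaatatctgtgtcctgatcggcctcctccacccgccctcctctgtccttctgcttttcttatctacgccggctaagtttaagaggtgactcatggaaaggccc

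The C3 window held 3 matches to the NF-kB letters and 1 to the C/EBP letters, with the C/EBP match beginning 45 bases before the start and the nearest NF-kB matches at 33 and 10 bases. The C1qb window held the ETS core 30 bases before the start and 2 overlapping matches to the NF-kB letters, on opposite strands, far upstream. The C3ar1 window held none of the 4 patterns. Of 27020 windows of this length in the RefSeq table, 14.7% held the NF-kB letters, 7.5% those of C/EBP, 18.9% the ETS core and 5.6% the STAT letters. A match is a run of letters and was not tested as a binding site.

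Set side by side per length of exon, the mean levels of the members had the same order in UT and UN and another order in each of the other groups. C3 led in U, at a mean of 477 CPM per kilobase, with C1qb second at 79.4 CPM per kilobase. In UT and UN, C1qb came first (266 and 312 CPM per kilobase) and C3 second (229 and 296). In untreated bladder C1qb (74.8 CPM per kilobase) also stood above C3 (47.2). In BBN bladder, all 3 C1q genes stood above C3, at 114, 66 and 50.5 CPM per kilobase for C1qb, C1qa and C1qc against 46.7 for C3. C3ar1, the receptor, was the lowest member in each group, from 3.07 CPM per kilobase in untreated bladder to 10.4 in UT. Within libraries, the ratio of C3 to C1qb in CPM was 12.1 to 39.2 in U, 0.788 to 19.2 in UN and 0.875 to 11.9 in UT, and it was 0.162 to 6.74 in BBN bladder and 2.51 to 3.86 in untreated bladder.

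The subunits of C1q, the recognition protein that starts the classical pathway, were higher on both sides of BBN-treated mice than in U. C1qa, which codes for the A chain, had 36.4, 40.5 and 54.6 CPM in U as its lowest, median and highest library. UN libraries held 22.5, 122 and 453 CPM, and UT libraries held 47.8, 153 and 266 CPM. UN 6 alone lay below the U libraries, the other 6 UN libraries lay above all of them, and 10 of 11 UT libraries did, with UT 10 within their range. C1qb, which codes for the B chain, had 71.7, 77.2 and 112 CPM in U, 41.1, 229.5 and 899 CPM in UN, and 74.9, 274 and 531 CPM in UT. C1qc, which codes for the C chain, had 50.2, 57 and 79.5 CPM in U, 63.5, 149 and 659.8 CPM in UN, and 66.3, 172 and 366 CPM in UT. UN 2 was the highest and UN 6 the lowest UN library for each of the 3 chains.

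For UN against U, the question was how the side without cancer in BBN-treated mice compared with healthy ureter. C1qa rose by a log2 fold change of 2.07 (SE 0.49, 95% interval 1.05 to 3.09, adjusted p = 0.00914 by edgeR's quasi-likelihood test). C1qb rose by 2.03 (SE 0.51, adjusted p = 0.0128) and C1qc by 2.04 (SE 0.47, adjusted p = 0.00751). C3ar1, the receptor through which C3a acts on myeloid and other cells, rose by 1.51 (SE 0.42, adjusted p = 0.0212), from 10.8, 13.7 and 18.1 CPM in U as lowest, median and highest to 12.8, 30.9 and 87.6 CPM in UN. UN libraries lay above all U libraries in 6 of 7 cases for C3ar1. In all, 4 of the 9 members were called higher (FDR under 0.1 and at least 2-fold), where 12.5% of the 15658 genes tested were called higher, and 0 were called lower, against 1.21% of all genes. The median log2 fold change was 0.89 over the members and 0.13 over all genes. The size rested in part on UN 2, without which C1qa stood at 1.44 and C1qb at 1.36 with adjusted p of 0.0205 and 0.0321, while C3ar1 stood at 1.0 (adjusted p = 0.0585) and was no longer at 2-fold.

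The other 5 members were not called in UN against U. C3 differed by -0.69 (SE 0.56, adjusted p = 0.423), C4b by 0.89 (SE 0.62, adjusted p = 0.348), and the values for C2, Cfb and C1ra were -0.16, 0.11 and 0.17. Their 95% intervals all spanned 0, from -1.85 to 0.47 for C3 and from -0.39 to 2.18 for C4b.

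For UT against U, cancerous side and healthy ureter were compared, and the same U libraries served as the control as for UN. C1qa rose by 1.59 (SE 0.46, adjusted p = 0.00769), C1qb by 1.46 (SE 0.47, adjusted p = 0.0154) and C1qc by 1.4 (SE 0.43, adjusted p = 0.0115). C3ar1 rose by 1.42 (SE 0.40, adjusted p = 0.00617), and 10 of 11 UT libraries lay above the U libraries, whose highest value was 18.1 CPM, with UT values of 16.9, 36.7 and 92.5 CPM as lowest, median and highest. C3, the component on which all pathways converge, fell by 1.35 on the log2 scale (SE 0.50, 95% interval -2.38 to -0.32, adjusted p = 0.0319). These 4 higher and 1 lower members stand against 18.7% of the 15658 genes called higher and 12.3% called lower. C4b (0.61), C2 (-0.34), Cfb (0.13) and C1ra (-0.07) were not called, with adjusted p from 0.404 to 0.907. Each of these 5 calls was also made in all 17 fits that left out a UT or U library, UT 9 among them, and in all 11 other alternatives.

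**Figure D1:**
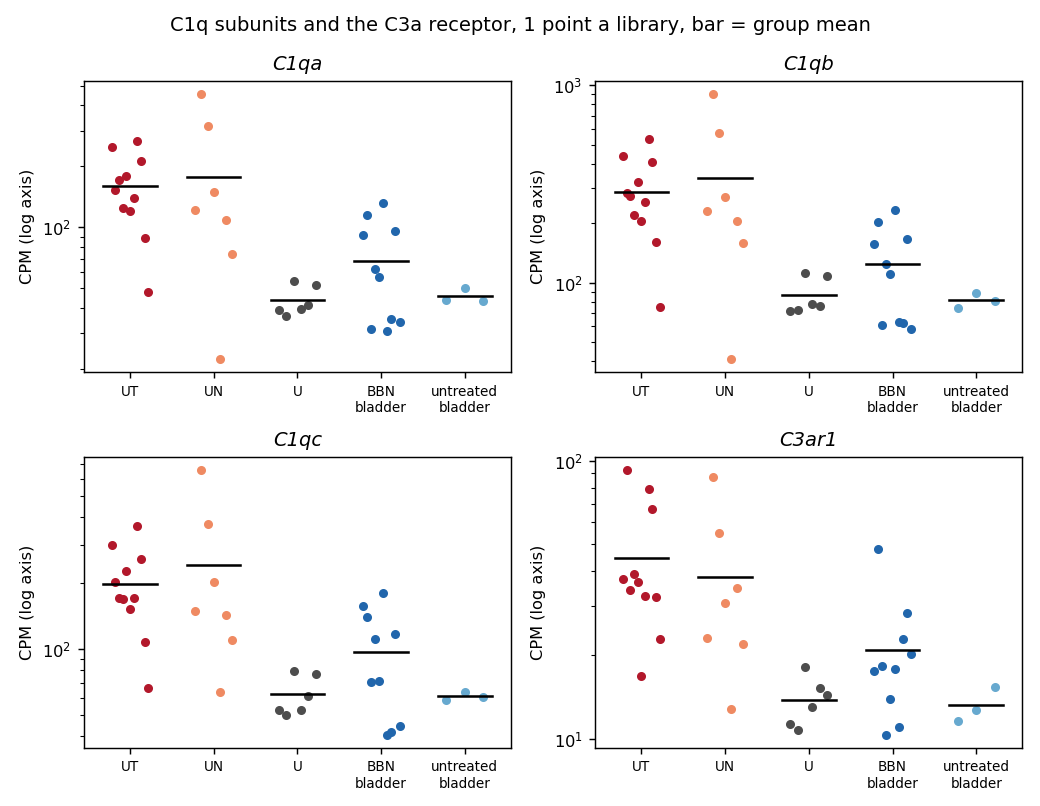
CPM on a log axis for C1qa, C1qb, C1qc and C3ar1, 1 point for each of the 37 libraries in their 5 groups, with a bar at the group mean. In each panel the U points sit close together and low, and all but 1 UT and 1 UN library lie above the highest of them, the exceptions being UN 6 in all 4 panels, UT 10 for the C1q genes and UT 5L for C3ar1.

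The mean level of C3 was higher in each ureter group than in the bladders. Its levels were 1307, 2647 and 2843 CPM in U, 453, 1402 and 3049 CPM in UN, and 248, 746 and 4041 CPM in UT, each as the lowest, median and highest library. The U libraries other than U 3L lay between 2534 and 2843 CPM, and 8 of 11 UT libraries were under the lowest of U, with UT 8 above the highest. Untreated bladders held 288, 223 and 217 CPM, and BBN bladders 37.6, 214 and 420.2 CPM. The order of the group means was U, UN, UT, untreated bladder and BBN bladder, and in a fit of all libraries only the step from UT to untreated bladder was called among neighbours (2.30 on the log2 scale, SE 0.73), where 10.2% of all genes were called higher in UT. The step from U to UN was 0.73 (SE 0.53, p = 0.177 by edgeR) and that from UN to UT 0.62 (SE 0.45, p = 0.182 by edgeR).

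The summed level of adipocyte genes moved with C3 between organs and between UT and U, and their part in the result was not tested. In the bladder, the adipocyte sum had medians of 130.3 CPM with BBN and 559.9 CPM without, while C3 differed by 0.27 on the log2 scale. Neither C3 nor any of the 7 adipocyte genes was called there. Over the 37 libraries, Pearson's r of C3 was 0.8 with the adipocyte sum and 0.788 with the summed level of 5 endothelial genes. For deviations from the group means, r was 0.512 and 0.632. The part of the endothelial genes was not tested either. All 7 adipocyte genes were called lower in UT than in U, where 12.3% of all genes were, with a median log2 fold change of -2.62. All 7 were called higher in U than in untreated bladder, where 6.62% of all genes were, with a median of 6.52. C3 amounted to 0.0453 to 0.142 of the adipocyte sum in U and to 0.0982 to 9.38 of it in UT. UT 4 and UT 2, with adipocyte sums of 88 and 35.7 CPM, held 826 and 248 CPM of C3. Smooth muscle genes were called lower in UT than in U in 7 of 8 cases as well.

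**Figure D2:**
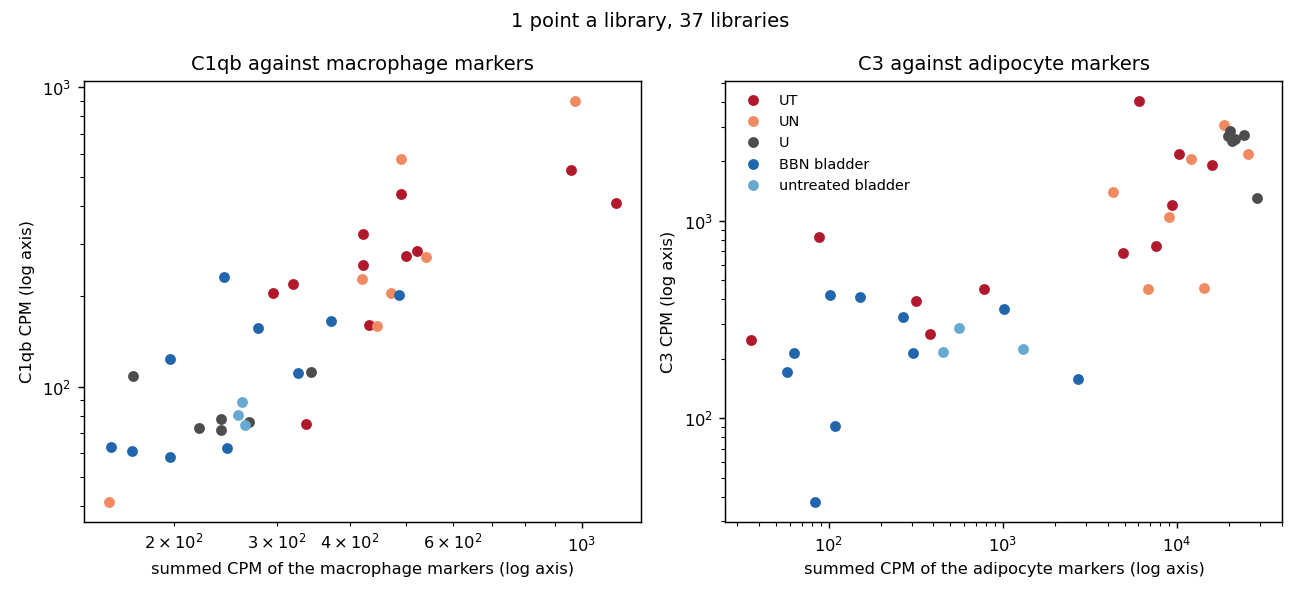
Left, C1qb CPM against the summed CPM of 10 macrophage genes, and right, C3 CPM against the summed CPM of 7 adipocyte genes, both on log axes, with 1 point for each of 37 libraries coloured by group. The U libraries lie at the upper right of the C3 plot and at the lower left of the C1qb plot.

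C4b, whose protein the C1 proteases cut before C2, had 72.7, 203 and 258 CPM in U, 86.6, 374 and 733 CPM in UN and 29, 164 and 1349 CPM in UT. UT 8 held both the highest C4b and the highest C3. C2, which supplies the protease of the C3-cutting enzyme, had 37, 49.8 and 64.8 CPM in U, 16.9, 42.7 and 71.3 CPM in UN and 10.8, 41.1 and 101 CPM in UT. Cfb, its counterpart in the alternative pathway, had 137, 174 and 212 CPM in U, 36.6, 129 and 411 CPM in UN and 55.4, 261 and 421 CPM in UT. C1ra, which codes for the C1r protease, had 42.4, 57.6 and 82.5 CPM in U, 20.1, 86.7 and 107 CPM in UN and 15.5, 55.6 and 156 CPM in UT. For these 4 genes the U libraries lay inside the range of UT, and for all but C4b inside that of UN, the highest UT value of C4b being 46.6 times the lowest against 3.56 times in U. The neighbours in the order of the group means of C4b and C1ra were not called apart in any step.

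**Figure D3:**
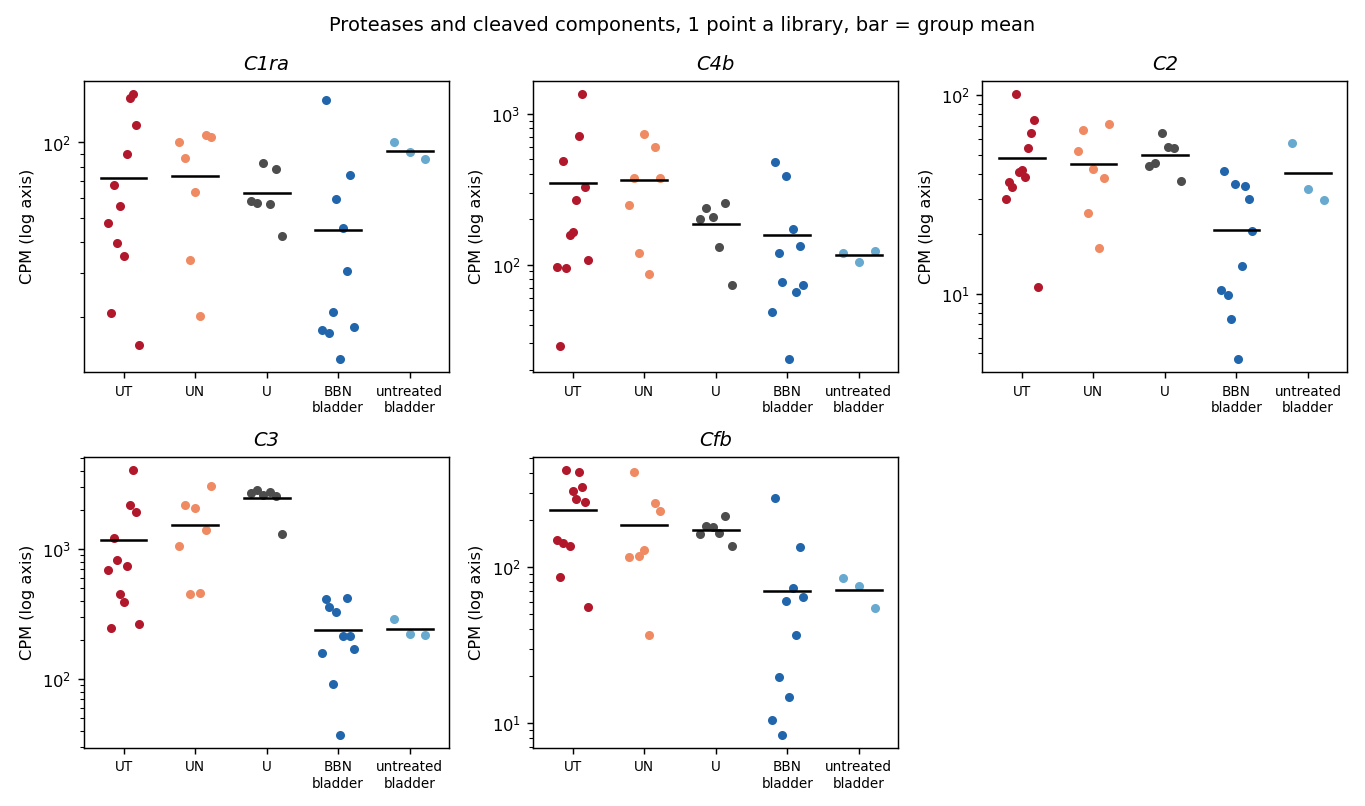
CPM on a log axis for C1ra, C4b, C2, C3 and Cfb, 1 point for each of the 37 libraries in their 5 groups, with a bar at the group mean. For C3 the U and UN points lie above all bladder points, while UT 2, UT 5L and UT 10 lie under the highest BBN bladder, and for C1ra, C2 and Cfb UT and UN points lie on either side of the U points.

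UT against UN addressed the difference between cancerous and noncancerous sides. None of the 9 members was called, where 1.32% of the 15658 genes were called higher and 4.2% lower, and 0 members had an unadjusted p under 0.05 with edgeR. DESeq2 and limma called 0 members as well. The log2 differences ran from -0.65 for C3 (95% interval -1.65 to 0.34) through -0.64 for C1qc (-1.42 to 0.15), -0.48 for C1qa (-1.31 to 0.35) and -0.09 for C3ar1 (-0.82 to 0.64) to 0.02 for Cfb (-0.77 to 0.81). The intervals of C3, C4b, C1ra and the C1q genes reach past a 2-fold lower level in UT, so an equal level on both sides was not shown. Without UN 2 the direction turned for 5 members, with C1qa at 0.15, C1qb at 0.10, C1qc at 0.04, C2 at 0.06 and C3ar1 at 0.43, and none of them was called.

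In the 7 mice with libraries from both sides, 6 had more C3ar1 in UT, with a mean difference in log2(CPM + 1) of 0.488 ± 0.662 (SD, n = 7, p = 0.109 by a two-sided exact sign-flip test). Its values in UT and UN were 37.5 and 23.1 CPM in mouse 1, 92.5 and 87.6 CPM in mouse 2, 34.4 and 55.1 CPM in mouse 3, and 39.3 and 30.9 CPM in mouse 4. They were 32.6 and 12.8 CPM in mouse 6, 79.1 and 35 CPM in mouse 7, and 32.5 and 21.9 CPM in mouse 9. Mouse 3 was the exception. Cfb was also higher in UT in 6 of 7 mice, by 0.541 ± 1.57 (SD, p = 0.359 by the exact test), mouse 2 going the other way from 411 CPM in UN to 86.5 CPM in UT. For C1qa, UT held more than UN in 4 mice and less in 3 (0.35 ± 1.41, SD, p = 0.547 by the exact test), and C3 was higher in 3 and lower in 4 (-0.426 ± 1.52, SD, p = 0.594 by the exact test). With TMM-scaled CPM the C3ar1 difference was 0.273 (p = 0.375 by the exact test), and over all UT and UN libraries its sign changed to 0.23 with library totals in place of TMM. For C4b the change ranged from -3.64 in mouse 2 to 2.03 in mouse 3. The smallest p that 7 mice allow is 0.0156, these p-values are not adjusted for 9 genes, and none fell under 0.05.

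**Figure D4:**
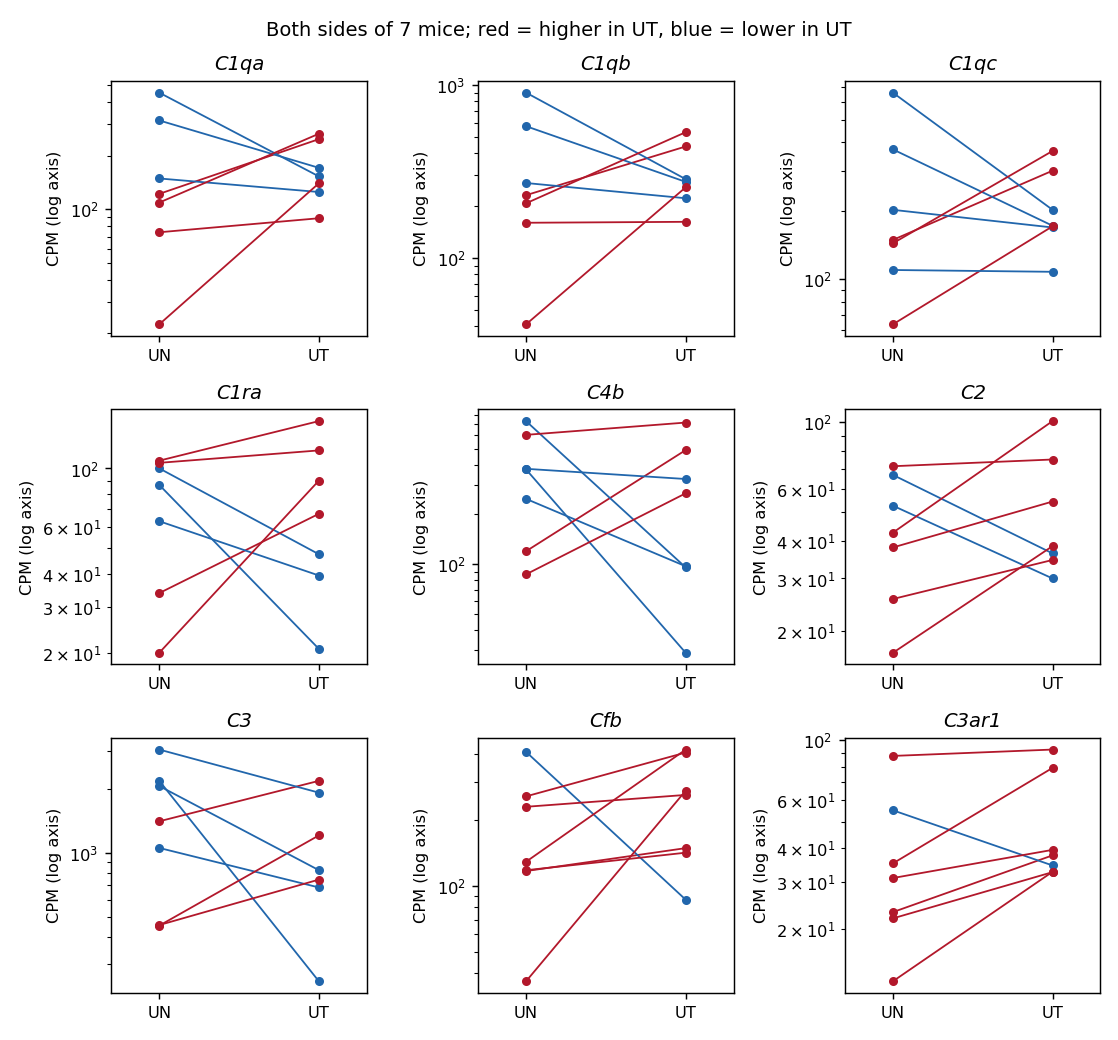
CPM on a log axis in UN and UT of the 7 mice with both libraries, 1 panel for each of the 9 members, each line joining a mouse's UN and UT libraries. Lines rise in 6 of 7 mice for C3ar1 and Cfb and cross in both directions for the C1q genes, C3 and C4b.

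In the bladder, BBN and untreated libraries were compared in a fit of their own. None of the 9 members was called, where 7.61% of the 18050 genes tested were called higher and 5.74% lower. C3ar1 came closest, with 11.6, 12.7 and 15.4 CPM in the untreated bladders and 10.4, 18.1 and 48 CPM as the lowest, median and highest BBN bladder (log2 fold change 0.95, SE 0.37, 95% interval 0.16 to 1.75, adjusted p = 0.125), and was the only member with an unadjusted p under 0.05. BBN bladders lay above all 3 untreated bladders in 7 of 10 libraries for C3ar1 and below all of them in 2. C1qa had 44, 50.5 and 43.3 CPM in the untreated bladders and 30.7, 59.9 and 132 CPM in BBN bladders, with 6 libraries above and 4 below the untreated range (1.02, SE 0.58, adjusted p = 0.246). C1qb (1.05) and C1qc (1.19) were not called either, with adjusted p of 0.232 and 0.221. DESeq2 called C1qc (1.36, adjusted p = 0.0938) and C3ar1 (1.07, adjusted p = 0.0314), and the library code range as a covariate led to calls of C1qb and C1qc, at 1.3 and 1.48. These settings called 4646 and 4171 of all 18050 genes higher, against 1373 in the main fit.

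BBN bladder 6 held the highest C1qa (132 CPM), C1qb (233 CPM) and C1qc (179.9 CPM) of the bladders and the lowest C3 (37.6 CPM), C4b (23.7 CPM), C2 (4.7 CPM) and C1ra (13.6 CPM). Without it and the BBN bladders with a RIN under 5, the differences of C1qa, C1qb and C1qc came to 0.38, 0.40 and 0.28 (adjusted p of 0.504, 0.454 and 0.605 with edgeR) and that of C3ar1 to 0.83. C1ra had 100.1, 91.4 and 86 CPM in the untreated bladders, and 9 of 10 BBN bladders lay below them, at 13.6, 25.9 and 148 CPM as lowest, median and highest (-0.90, SE 0.47, adjusted p = 0.206). C2 had 57.7, 33.8 and 29.5 CPM in the untreated bladders and 4.7, 17.3 and 41.3 CPM in BBN bladders (-0.79, SE 0.39, adjusted p = 0.19). Limma with a variance for each group called C1ra lower (-1.13, adjusted p = 0.00448), as it did 2395 of all 18050 genes. Of 8 fibroblast genes, 4 were also called lower in BBN bladder by edgeR, where 5.74% of all genes were (median log2 fold change -1.62). Their part in the lower C1ra and C2 was not tested. C3 (0.27), C4b (0.62) and Cfb (0.01) had intervals that spanned 0, and 4 of 10 BBN bladders lay above and 6 below the narrow untreated range of C3.

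U against untreated bladder set the healthy organs beside each other. C3 was higher in U by a log2 fold change of 3.64 (SE 0.82, 95% interval 1.98 to 5.30, adjusted p = 0.00302), and all 6 U libraries lay above the 3 bladders. It was the only member called among 9, where 6.62% of the 18959 genes tested were called higher and 8.61% lower. Cfb had 84.9, 75.6 and 55 CPM in the bladders, all under the U libraries, and differed by 1.58 (SE 0.70, adjusted p = 0.149), so it was not called here. Of all genes, 13.4% had U libraries wholly above the bladders in CPM and 39.1% wholly below. With mouse as a fixed replicate block, which compares the organs of the same 3 mice, 3 members were called higher, C3 at 3.70, Cfb at 1.67 (adjusted p = 1.04e-05) and C4b at 1.03 (adjusted p = 0.0143), and with mouse as a random replicate block 2 members were, C3 and Cfb (1.6, adjusted p = 0.0646). Over all genes tested, the fixed block called 2389 of 15318 higher and the random block 1605 of 18959. C1ra was lower in CPM in all 6 U libraries (42.4 to 82.5 CPM against 86 to 100.1 CPM), but after normalization its difference was -0.26 (SE 0.55, adjusted p = 0.831).

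**Figure D5:**
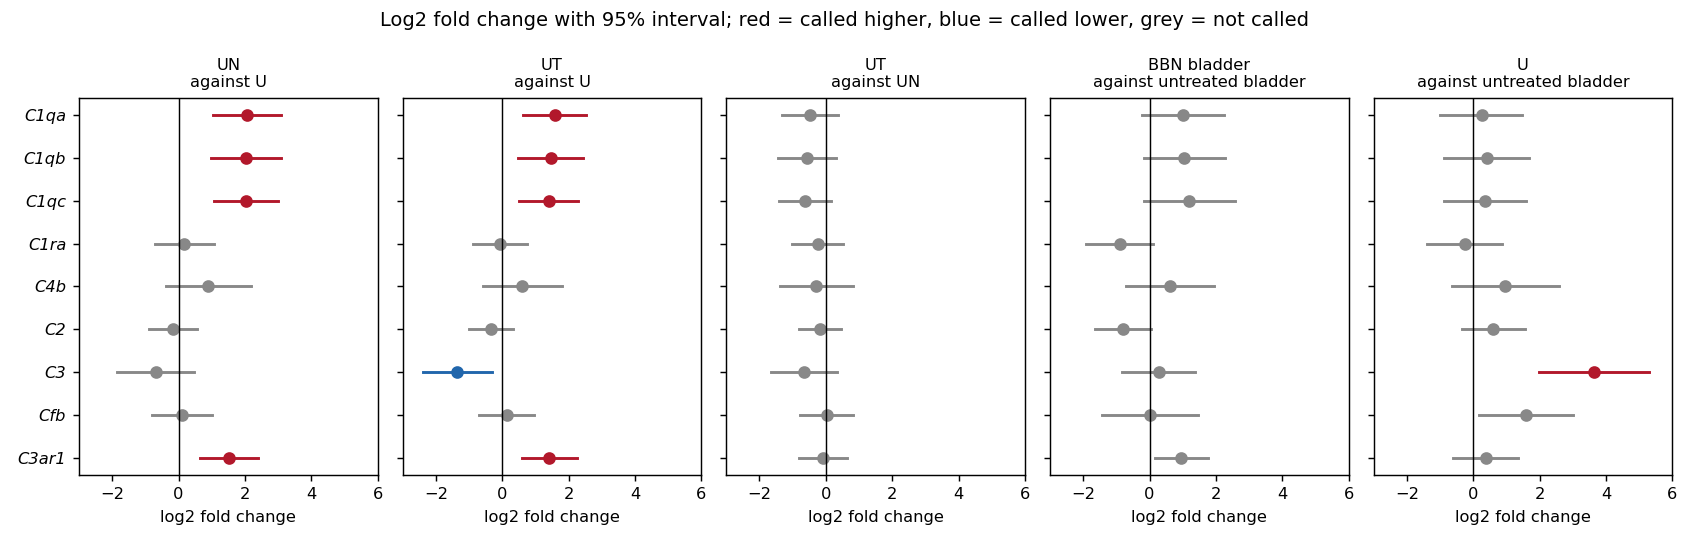
Log2 fold changes (points) with 95% intervals (lines) for the 9 members in 5 comparisons, from edgeR, with the first-named group over the second. C1qa, C1qb, C1qc and C3ar1 are red in both comparisons with U, C3 is blue in UT against U and red in U against untreated bladder, and the remaining intervals are grey.

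Whether BBN went with a different change in ureter than in bladder was tested as an interaction, UN against U less BBN bladder against untreated bladder. None of the 9 members was called, where 1.74% of 18959 genes were called higher and 0.469% lower, and 0 had an unadjusted p under 0.05 with edgeR. No alternative tried, DESeq2 and limma included, called a member. The largest estimates were 1.11 for C1ra (SE 0.67, adjusted p = 0.481) and 1.09 for C1qa (SE 0.72, adjusted p = 0.52), with intervals of -0.25 to 2.47 and -0.38 to 2.55. Over 26 fits that left out a library, they ranged from 0.97 to 1.41 for C1ra and from 0.49 to 1.31 for C1qa. The call of C1q in the ureter and its absence in the bladder were thus not shown to differ.

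Ureter and bladder of BBN-treated mice were set side by side in the fit of all libraries, which treats libraries of the same mouse as independent. C3 was higher in UN than in BBN bladder by 2.72 (SE 0.48, adjusted p = 0.000116) and in UT than in BBN bladder by 2.1 (SE 0.44, adjusted p = 0.00102). C2, C4b and Cfb were also called higher in UN and in UT than in BBN bladder, Cfb by 1.71 and 1.76. Of the 18959 genes tested, 8.68% were called higher in UN and 6.99% in UT than in BBN bladder. The summed level of 5 endothelial genes also differed between these groups, at 27.5, 50.1 and 252 CPM in BBN bladder as lowest, median and highest, 71, 268 and 407 CPM in UN and 84, 223 and 599.5 CPM in UT, and its part in these results was not tested. C1qa, C1qb and C1qc were called higher in UN than in BBN bladder (1.34, 1.42 and 1.23), whereas for UT against BBN bladder C1qa stood at 0.90 (SE 0.38, adjusted p = 0.0658) and C1qb at 0.90 (adjusted p = 0.0717), under the FDR threshold but short of 2-fold, and C1qc at 0.64 (adjusted p = 0.199). C3ar1 was likewise short of 2-fold in both, at 0.97 in UN (adjusted p = 0.0407) and 0.92 in UT (adjusted p = 0.0169), and C1ra was not called in either (0.84 and 0.64, adjusted p of 0.126 and 0.169). The difference between UN and UT in this respect is that of UT against UN, in which no member was called.

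The macrophage genes, a list of 10 without C1q, moved with the C1q genes, and their part in the result was not tested. Their summed level was 170.0 to 343 CPM in U, 155 to 973 CPM in UN, 295 to 1143 CPM in UT, 156 to 486 CPM in BBN bladder and 257 to 265 CPM in untreated bladder. Cd68, Aif1, Fcgr1, Ms4a7 and Cx3cr1, which are expressed in macrophages and related myeloid cells, were called higher both in UN and in UT than in U, and 0 of the 10 were called lower. UN 2 was the highest and UN 6 the lowest UN library in the macrophage sum, as for C1q. The ratio of C1qb to the macrophage sum was 0.284 to 0.633 in U, 0.265 to 1.17 in UN and 0.223 to 0.896 in UT, with medians of 0.326, 0.5 and 0.555. The highest U value was that of U 3L, the other 5 U libraries lay between 0.284 and 0.328, and 6 of 7 UN and 10 of 11 UT libraries lay above 0.328, but only 2 UN and 4 UT libraries lay above U 3L. The difference in this ratio was not tested. Neutrophil genes were higher as well, with 6 of 6 tested called in UN and 5 of 6 in UT against U, while T cell genes were called in UT (6 of 7) and in UN in 0 of 7. Of all genes, 12.5% were called higher in UN and 18.7% in UT against U.

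The pattern of each member over the 37 libraries was set beside that of all genes tested other than the 9 members, as Pearson's r of log2(CPM + 1), which mixes differences between groups with those within them. Fcgr3 and Fcgr2b, which code for low-affinity IgG receptors of myeloid cells, were nearest to C1qa (r = 0.967 and 0.955) and C1qb (0.958 and 0.952), and Fcgr3 and Ly86 were nearest to C1qc (0.952 and 0.938). Igsf6 (0.907) and Lilrb4a (0.897) were nearest to C3ar1. C3 had Osbpl1a (0.932), Dbt (0.929) and Pcx (0.926), the last coding for pyruvate carboxylase, C2 had Lipa (0.901), 9530082P21Rik (0.886) and C1qtnf1 (0.886), and Cfb had Lipa (0.893), Adam15 (0.891) and Ctsb (0.883). C4b and C1ra were nearest to C4a (0.994) and C1rb (0.97), which may share their reads, then C4b to Ace (0.866) and C1ra to C1s1 (0.959) and C1s2 (0.943), the partner protease of C1r. The ratio of C1qa to C1qb stayed between 0.468 and 0.639 in all 37 libraries.

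The ratio of C1qc to C1qb was less even. Its group medians were 0.689 to 0.747, and it was highest in libraries with a RIN under 5, at 1.55 in UN 6, 1.17 in BBN bladder 3, 1 in BBN bladder 1 and 0.892 in BBN bladder 4, but 0.734 in U 1R. C1rb over C1ra went the other way in some of these libraries, at 0.0732 in BBN bladder 3, 0.181 in UN 6 and 0.213 in BBN bladder 4, against medians of 0.316 to 0.33. Without the libraries with a RIN under 5, 4 members were called in UN against U and 5 in UT against U, as with them.

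A further 43 complement genes were listed by role. In UN against U, 34 of them were tested and 12 were called higher and 0 lower, where 12.5% and 1.21% of all genes were. Their median log2 fold change was 0.50 against 0.13 over all genes. In UT against U, 9 were called higher and 4 lower, where 18.7% and 12.3% of all genes were (median 0.14 against 0.11). In UT against UN none of 34 was called by edgeR (5 had an unadjusted p under 0.05), where 1.32% of all genes were called higher and 4.2% lower. In U against untreated bladder 2 were higher and 1 lower of 40, where 6.62% and 8.61% of all genes were. Of these, Cd59a (1.57) was not called in any of 9 fits that left out a library. DESeq2 and limma were not counted over this list.

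Of 8 receptors other than C3ar1, 5 were called higher in UN and 5 in UT than in U, where 12.5% and 18.7% of all genes were. Without UN 2, 3 of the 5 called in UN were still called. Itgax, the alpha chain of complement receptor 4, rose by 2.39 (SE 0.46, adjusted p = 0.00227) in UN and by 2.87 (SE 0.45, adjusted p = 7.45e-05) in UT. Vsig4, a receptor for C3 fragments on tissue macrophages, rose by 2.93 in UN (SE 0.91, adjusted p = 0.0359), but stood at 1.92 without UN 2, which held 29.9 CPM against a UN median of 3.83 CPM, and was then not called (adjusted p = 0.112). Cr2, the receptor that binds C3d on B cells, rose by 4.09 in UT (SE 1.20, adjusted p = 0.00865), from 0.874 ± 0.284 to 18.6 ± 23.7 CPM (SD). C5ar1, the receptor for C5a, rose by 1.94 in UN (1.14 without UN 2) and by 1.43 in UT, at 48.5 ± 44.9 CPM in UN, 43.5 ± 27.8 CPM in UT and 13.3 ± 2.92 CPM in U (SD).

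Among regulators, Cfi, the protease that inactivates C3b and C4b, rose by 3.67 (SE 0.93, adjusted p = 0.013) in UN and by 4.83 (SE 0.94, adjusted p = 0.000423) in UT, at low levels of 0.244 ± 0.0832 CPM in U, 3.33 ± 3.1 CPM in UN and 8.86 ± 12.6 CPM in UT (SD). Its value in UT ranged from 4.10 to 4.99 over 17 fits that left out a library, all of which called it. Clu, which codes for clusterin, an inhibitor of the terminal complex with many other roles, rose by 2.75 in UN and by 3.58 in UT (SE 0.60 and 0.61), from 277 ± 40.4 CPM in U to 2119 ± 1743 CPM and 3959.7 ± 2644 CPM (SD). Serping1, the C1 inhibitor, rose by 1.13 in UN (SE 0.41, adjusted p = 0.0715), and was the only listed complement gene called in the interaction, at 2.06 (SE 0.60, adjusted p = 0.0789), where it differed by -0.90 in BBN bladder. The first call was lost without UN 2 (0.76, adjusted p = 0.179) and in 7 of 13 fits that left out a library, and the second in 11 of 26, with values of 1.72 to 2.24. Cd59a, a membrane inhibitor of the terminal complex, fell by 1.76 on the log2 scale in UT (SE 0.42, adjusted p = 0.00196), from 123 ± 18.8 to 44 ± 28.1 CPM (SD). Cd55 and Cd46 were not called in any of the comparisons, with log2 differences in UT against U of -0.61 and -0.31.

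Cfd, or adipsin, the adipocyte-derived protease that cuts factor B, had a higher mean level in the ureter groups than in the untreated bladder. It held 32480.3 ± 6563 CPM in U, 19317 ± 13914 CPM in UN and 7849 ± 8103 CPM in UT (SD), and 459.7 ± 651 CPM in untreated bladder. It fell by 2.31 on the log2 scale in UT against U (SE 0.87, adjusted p = 0.035), was not called in UN against U (-0.72, adjusted p = 0.653), and was higher in U than in untreated bladder by 6.48 (SE 2.0, adjusted p = 0.0271), but was not called without untreated bladder 1 or 3 (6.02 and 5.95, adjusted p = 0.137 in both). Cfp, or properdin, which stabilises the alternative pathway enzyme, rose by 1.45 in UN (SE 0.58, adjusted p = 0.0996), a call lost in 8 of 13 fits that left out a library, and stood at 0.64 without UN 2 (adjusted p = 0.385). In the lectin and terminal pathways Fcna, or ficolin A, rose by 2.91 in UN and 1.83 in UT (SE 0.85 and 0.77), and C6, a part of the membrane attack complex, by 2.67 and 1.93 (SE 0.68 and 0.63). Without UN 2 the values in UN were 2.07 for Fcna and 1.73 for C6, both still called, and without UT 7 Fcna in UT was not called (1.48, adjusted p = 0.106). C8g, which codes for another part of that complex, fell by 1.15 on the log2 scale in UT (SE 0.32, adjusted p = 0.00597), from 10.1 ± 1.31 to 5.49 ± 2.26 CPM (SD). None of the 4 other classical genes, C4a, C1rb, C1s1 and C1s2, was called in any of these comparisons.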

How the data were processed

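RNA of 37 samples was sequenced after SMARTerHT and NexteraXT library preparation, which do not mark strand. The authors mapped reads to GRCm38/mm10 (the submitters' processing notes name TopHat2 2.1.1 and Cuffdiff 2.2.1) and deposited estimated counts per gene symbol without normalization, of which 21.1% of the values above 0 were not whole. The counting program is not given in the sources used here. Groups come from the sample labels, and all columns carried the name of a sample. Coordinates are those of GENCODE vM21.

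After rounding, quasi-likelihood tests were run in edgeR 4.0.16 (R 4.3.3) with TMM and filterByExpr, all groups of a fit sharing the spread, and genes at least 2-fold apart with an FDR below 0.1 were called. UT, UN and U formed a fit, both bladder groups another, and all 37 libraries a further one for the organs, the interaction and the order of levels. P-values treat libraries as independent, although the 6 U libraries come from 3 mice and ureter and bladder libraries come from the same animals. CPM used library totals. A two-sided exact sign-flip test compared sides within mice on log2(CPM + 1). DESeq2 1.42.0, limma 3.58.1, other normalizations, filters, covariates and left-out libraries served as alternatives, and the procedure was tested on simulated counts. Same-numbered UT and UN libraries come from the same mouse by their labels. The correlation of their deviations from group means had a median of 0.0292 over 7 pairs and -0.0139 over 70 pairs of different mice. Between any pair of libraries in a group, chi-square over its degrees of freedom was at least 7.36, so none was a copy of another.

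The members and gene lists were chosen with earlier results of these data known. The genes named are the 9 members, up to 4 further complement genes called in a comparison by size of change, with Cd55, Cd46, Cd59a, Serping1 and Cfd in any case, and for each member the 3 genes of nearest pattern. C5ar1, C6, C8g and Cfp were named after their values were seen. Some results under this rule are not reported here. Leaving out BBN bladder 6 together with the BBN bladders of low RIN was chosen after seeing the data.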

Additional observations from a re-analysis of the deposited data

Results flagged for a closer look

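C3 in U 3L stood apart from the other U libraries, at 1307 CPM against 2534 CPM for the next lowest. The gap came to 0.852 of the range of the 6 libraries on the log2(CPM + 1) scale, and 1 of 27 groups of values of the 9 members was set apart in this way, where chance gives about 1 in 20. The right ureter of the same mouse held 2534 CPM. C4b was also lower in U 3L than in U 3R, at 72.7 against 258 CPM, and U 3L had the highest adipocyte sum and the lowest macrophage sum of the U libraries. Without U 3L, C3 in UT against U stood at -1.46 (adjusted p = 0.0313 with edgeR) and was still called.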

How the results depend on the processing

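The members called in UN against U numbered 4 in all 11 alternatives and 3 to 4 without single libraries, and those in UT against U 5 throughout, with 11 alternatives and 17 left-out libraries. UT against UN and the interaction had 0 throughout. In the bladder, DESeq2 called 2, limma with a variance for each group 1 and the library code range as a covariate 2, and 0 to 1 were called without single libraries (C1ra without BBN bladder 2, C3ar1 without 5 or 7). In U against untreated bladder, DESeq2, limma with a variance for each group, the replicate block with mouse as a random effect, leaving out low RIN, RIN as a covariate, and leaving out BBN bladder 6 with low RIN called 2 (C3 and Cfb), the fixed replicate block 3, and 1 was called without any single library. The block changed no other call. The cause of these changes was not tested.

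Of 657 other values of members, 34 changed sign, none of them called. In UT against UN, C2 became 0.10 with library totals, 0.0011 in the first code range and 0.04 with the fixed replicate block, C3ar1 0.23, 0.05 with limma by group, 0.10 with the random block and 0.29 with the fixed block, C1qa 0.16 and C1qb 0.08 with the fixed block, and Cfb -0.11 without low RIN and -0.06 with RIN as a covariate. Against U, Cfb in UN became -0.21 (limma by group), -0.24 (random replicate block) and -0.03 (first code range), C1ra in UN -0.03 (first code range), C4b in UT -0.01 and Cfb in UT -0.09 (both by limma by group and the random block), and C1ra in UT 0.21 (library totals). In the bladder, C3 became -0.01 with library totals, and Cfb -0.03 with library totals, -0.01 without filter, -0.47 with limma by group, -0.04 with the code range as a covariate, -0.09 in the first code range and -0.05 in a fit of all libraries. C1qa in U against untreated bladder became -0.07 with library totals. In the interaction, C4b became -0.08 in the first code range and -0.0036 without BBN bladder 6 and low RIN, and Cfb -0.16 without low RIN, -0.03 with RIN as a covariate and -0.46 without BBN bladder 6 and low RIN. C1qc within mice became -0.12 with TMM-scaled CPM. Over single left-out libraries, Cfb ranged from -0.39 to 0.23 in UN against U, from -0.11 to 0.53 in UT against UN, from -0.45 to 0.14 in the bladder and from -0.36 to 0.59 in the interaction, and C1ra in UT against U from -0.23 to 0.04. In UT against UN, C2 ranged from -0.33 to 0.06, C1qa from -0.64 to 0.15, C1qb from -0.72 to 0.10, C1qc from -0.77 to 0.04 and C3ar1 from -0.27 to 0.43, all positive without UN 2.

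Over all genes, library totals in place of TMM moved the median log2 fold change of UT against U from 0.11 to 0.39, of UT against UN from -0.02 to 0.20 and of U against untreated bladder from -0.01 to -0.32, with splits of 3888 higher and 1369 lower (2921 and 1924 with TMM), 21 and 5 (206 and 658) and 933 and 2249 (1256 and 1633). RLE gave 253 and 126 in the interaction (330 and 89 with TMM). Called genes in UT against UN ranged from 0 to 1391 over alternatives and from 5 to 1854 over left-out libraries (864 in the report, 5 to 22 without UT 2, 5R, 5L or 10 or UN 2 or 6, 562 and 571 without UT 3 or 4, and 1683 to 1854 without UT 9, UN 3 or UN 7), in UN against U from 1301 to 2716 (2139), in the bladder from 2004 to 5799 (2409), in U against untreated bladder from 2697 to 5673 (2889) and in the interaction from 342 to 1711 (419). Without untreated bladder 1, 2 or 3, the counts were 1024, 1075 and 1039 in the bladder, 1709, 2012 and 1724 in U against untreated bladder and 129, 189 and 146 in the interaction, which had 684 without UN 6. Comparisons with the untreated bladder rest on 3 libraries.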

Other observations

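The 2 ureters of a tap-water mouse could differ by as much as libraries of different mice. In mouse 1, right and left ureter held 2683 and 2843 CPM of C3, and the 9 members differed by -0.24 to 0.10 on the log2(CPM + 1) scale. In mouse 3, the right ureter was higher in C4b by 1.82, in C3 by 0.95 and in C1ra by 0.87, while C1qa differed by -0.32 and C1qb by -0.49. In mouse 2 the right ureter held more C1qb (112 against 78 CPM) and more C4b (206 against 131 CPM), and nearly equal C3 (2611 against 2729.9 CPM). These pairs are single observations with no test.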
